A study of Mus musculus with 4 samples.

Results

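The genes of the eukaryotic translation initiation factors (symbols that start with Eif) and elongation factors (symbols that start with Eef) were examined in mouse CD8 T cells after exposure to TCDD. A gene was a member where its symbol in the platform annotation had one of these beginnings, and only probe sets annotated to 1 gene were used. Where a gene had several, the one with the highest average across the 4 arrays stood for it. This gave 53 members among 12393 measured genes, from 119 probe sets, and 47 of the 53 had a mean above 6.01, the median level of all probe sets. The TCDD group was 8 to 12 week old female C57BL/6 mice, 24 h after an intraperitoneal injection of 10 µg/kg TCDD, a dioxin that activates the aryl hydrocarbon receptor (AHR). The DMSO group was female mice of the same strain and age range, given the solvent DMSO and taken after the same 24 h. The submitters' design text gives 4 mice a group, with their spleen cells pooled ahead of the CD8 T cell sort. Each group has 2 arrays, numbered 1 and 2 in the titles, and nothing says that the 2 arrays came from separate pools, so p-values measure the spread between arrays, which may be technical.

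Initiation factors assemble the small ribosomal subunit, the initiator tRNA and the mRNA and carry the complex to the start codon. eIF2 brings the initiator tRNA as a GTP complex, eIF2B recharges eIF2 with GTP, and stress kinases stop this exchange by phosphorylating eIF2. eIF3 is the large scaffold on the small subunit, and the eIF4 factors bind the cap and unwind the leader of the mRNA. Elongation factors deliver aminoacyl-tRNA (eEF1) and translocate the ribosome (eEF2). Naive T cells translate little, and activation raises both their translation and many of these factors.

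The sorted cells carried the transcripts of CD8 T cells. Of 7 markers 6 were measured, and their median level (log2) was 9.33 in TCDD replicate 1 and 9.445 in TCDD replicate 2, against 9.70 in DMSO replicate 1 and 9.995 in DMSO replicate 2 (2 values given for a group below are those of replicates 1 and 2). The TCDD arrays were lower than either DMSO array for 3 of these 6, Cd8a, Cd3g and Thy1. The myeloid markers, 5 of 5 measured, had medians of 5.55 and 5.94 in the TCDD arrays against 5.45 and 7.80 in the DMSO arrays, the last because S100a8 and S100a9 were at 8.67 and 7.80 in DMSO replicate 2. For the other myeloid genes DMSO replicate 2 was not the highest array. Lyz2 measured 7.11 and 6.85 in the TCDD arrays against 6.07 and 6.78 in the DMSO arrays, with both TCDD arrays higher. Csf1r measured 7.92 and 8.72 against 7.35 and 8.65, with overlapping groups, and Itgam differed by 0. Lyz2 and Csf1r were, however, both higher in DMSO replicate 2 than in DMSO replicate 1. B cell (5 of 6), CD4 T cell (2 of 2), NK cell (2 of 3) and erythroid (2 of 4) markers had medians between 5.725 and 7.09 on every array, although 2 of the B cell list, the MHC class II genes H2-Aa and H2-Eb1, measured 9.39 to 11.30 in the TCDD arrays and 8.25 to 10.94 in the DMSO arrays. The 3′ minus 5′ signal of the Gapdh controls, a measure of how far the amplified RNA reached, was 5.35 and 4.56 in the TCDD arrays against 5.27 and 4.30 in the DMSO arrays, so it separated the numbers and not the treatments. These markers and controls move with parts of the results below, and their part in those results was not tested.

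The translation factor genes as a whole were not displaced after TCDD. Their median difference, TCDD minus DMSO on the log2 scale, was 0.005, beside 0.01 over all genes, with 25 members below 0 and 27 above. The members lay apart from each other instead, from −1.07 for the helicase gene Eif4a2 to 0.57 for the eIF2B subunit gene Eif2b2. The groups were separate, with the TCDD arrays below the DMSO arrays, for 12 of 53 members (22.6%), where 12% of all genes did so, and above for 8 of 53 (15.1%), where 12.9% of all genes did so. The other 33 overlapped. With each array centred on its median 10 were separate and lower and 10 separate and higher (18.9% each), beside 12.4% and 14.1% of all genes. In bulk RNA, fewer cells of a type and less RNA per cell cannot be told apart.

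No member passed the test of the difference. In the limma fit across 22626 probe sets with Benjamini-Hochberg adjustment, 0 probe sets (0%) and 0 members had an adjusted p under 0.05, against 1.94% of probe sets at an unadjusted p under 0.05, and the lowest adjusted p over members was 0.997. At an unadjusted limma p under 0.05 there were 10 of 53 members, 6 lower and 4 higher (18.9%). Of all genes 2.11% had one, 1.28% lower and 0.823% higher. That count rested on the fit. It was 3 (5.66%, beside 1.63% of all genes) with a variance trend and robust fitting together, and 4 (7.55%, beside 1.65%) when all probe sets of a gene were averaged. As arrays were left out it lay between 1 without DMSO replicate 2 (1.89%, beside 0.549% of all genes) and 12 without TCDD replicate 1 (22.6%, beside 5.24%). A difference of 0.5 or more in size was measured for 5 of 53 members (9.43%), where 2.2% of all genes had one, and 4 of these 5 were lower after TCDD. The shares were not matched for level, since 47 of 53 members and 7389 of 12393 genes lay above the median level.

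**Figure D1:**
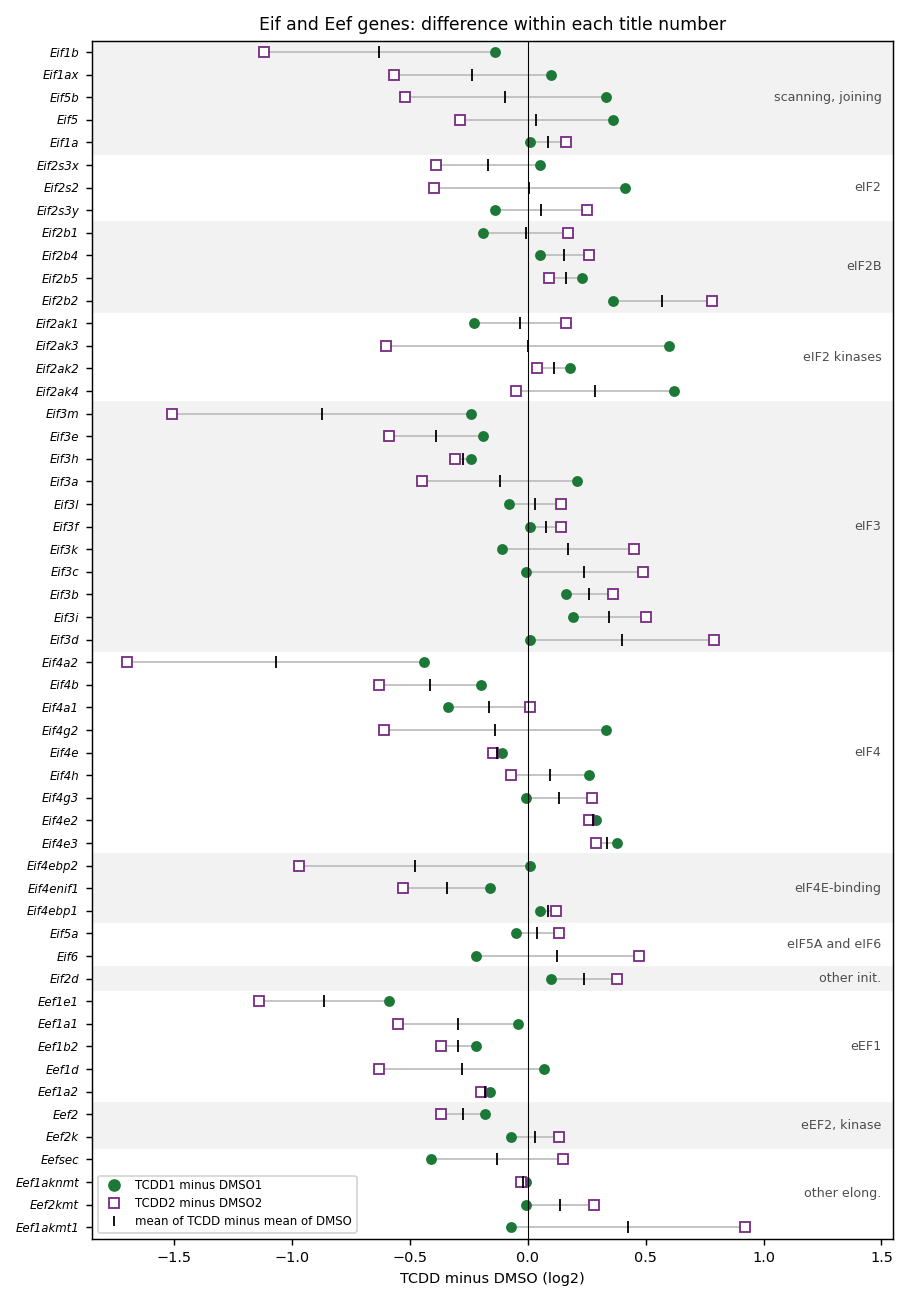
Difference between TCDD and DMSO (log2, horizontal axis) for the 53 genes, by factor, within number 1 (circles), within number 2 (squares) and between group means (ticks). The 5 eEF1 genes all have a tick below 0, the eIF3 genes spread to both sides, and most squares lie farther from 0 than the circles.

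Eif4a2, Eif3m and Eef1e1 had the lowest differences among the members. Eif4a2, one of a pair of closely related genes for the RNA helicase of the cap complex, measured 10.29 and 9.17 in the TCDD arrays against 10.73 and 10.87 in the DMSO arrays. The groups did not overlap, and TCDD replicate 2 was the array that stood farthest out. The difference of −1.07 had 95% limits of −2.06 and −0.08 and an adjusted limma p of 0.997, and it was −0.51 without TCDD replicate 2. Its paralogue Eif4a1 measured 9.85 and 9.65 against 10.19 and 9.64, with overlapping groups and a difference of −0.165 (limits −0.73 and 0.40).

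Eif3m, which encodes a subunit of eIF3, measured 7.18 and 6.59 in the TCDD arrays against 7.42 and 8.10 in the DMSO arrays. Its other probe set, below the median level, went the other way, at 0.155. In the one used the highest value was in DMSO replicate 2 and the lowest in TCDD replicate 2, so the difference of −0.875 (limits −1.68 and −0.07) came mainly from the arrays numbered 2. It was −0.24 between the arrays numbered 1. Both probe sets of Eif3m have names that mark possible cross hybridisation. Eef1e1, whose protein sits in the complex of aminoacyl-tRNA synthetases, measured 7.06 and 7.08 against 7.65 and 8.22. The TCDD arrays nearly coincided below both DMSO arrays, with −0.59 within number 1 and −1.14 within number 2. Its difference of −0.865 (limits −1.41 and −0.32) had an unadjusted limma p of 0.0103, the lowest among the members. With single arrays removed it lay between −1.15 and −0.58.

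Eif2b2, which encodes the beta subunit of eIF2B, had the highest difference. It measured 9.37 and 9.25 in the TCDD arrays against 9.01 and 8.47 in the DMSO arrays. The groups did not overlap, and DMSO replicate 2 was the lowest array. The difference was 0.57 (limits 0.03 and 1.11), and the other probe sets of the gene differed by 0.225 and 0.065. The name of the probe set used marks possible cross hybridisation, and without such probe sets the difference was 0.065.

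The 250 bases before the RefSeq start of these 4 genes are shown because they carry the largest differences without overlap and TCDD acts through a DNA-binding receptor. They come from the RefSeq table of GRCm38.p6 and were read on the strand of the gene, from chr16:23107218-23107467 (plus strand, Eif4a2), chr2:105017028-105017277 (minus strand, Eif3m), chr13:38659029-38659278 (minus strand, Eef1e1) and chr12:85219231-85219480 (plus strand, Eif2b2). Capitals mark GCGTG or its reverse complement CACGC, the core bound by AHR with its partner ARNT.
Eif4a2: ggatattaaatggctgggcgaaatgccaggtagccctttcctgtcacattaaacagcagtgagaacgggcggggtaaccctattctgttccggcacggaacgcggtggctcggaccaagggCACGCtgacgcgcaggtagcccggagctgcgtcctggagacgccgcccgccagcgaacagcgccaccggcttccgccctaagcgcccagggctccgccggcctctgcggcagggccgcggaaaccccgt
Eif3m: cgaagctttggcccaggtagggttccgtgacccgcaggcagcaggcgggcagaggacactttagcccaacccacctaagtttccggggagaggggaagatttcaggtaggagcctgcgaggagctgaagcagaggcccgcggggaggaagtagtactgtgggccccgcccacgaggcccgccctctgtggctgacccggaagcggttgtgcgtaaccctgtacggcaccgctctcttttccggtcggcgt
Eef1e1: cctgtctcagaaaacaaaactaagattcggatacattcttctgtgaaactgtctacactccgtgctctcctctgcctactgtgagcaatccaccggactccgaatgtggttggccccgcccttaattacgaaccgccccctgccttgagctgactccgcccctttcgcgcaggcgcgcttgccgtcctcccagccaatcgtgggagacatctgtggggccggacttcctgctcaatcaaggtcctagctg
Eif2b2: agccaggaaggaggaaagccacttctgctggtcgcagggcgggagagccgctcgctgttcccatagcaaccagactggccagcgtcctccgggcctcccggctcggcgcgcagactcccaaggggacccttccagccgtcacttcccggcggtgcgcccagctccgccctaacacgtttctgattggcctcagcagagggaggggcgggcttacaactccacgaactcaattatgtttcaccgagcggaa

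The core stood once in the Eif4a2 window and these letters were not in the other 3. The table held windows for 43 members, 58 windows in all since some genes have several starts, and 28 of the 58 (48.3%) had the core on either strand. It was present in 8 of 14 windows of members with both TCDD arrays lower and in 2 of 8 windows of members with both higher. Of all 32851 windows in the table, which include many noncoding genes, 28.2% had it.

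Of the 9 eIF4 genes, Eif4a2, Eif4b and Eif4e, 3 in all, were separate and lower after TCDD (33.3%, beside 12% of all genes). Another 2, Eif4e2 and Eif4e3, were separate and higher (22.2%, beside 12.9%). The median difference of the 9 was −0.13. Eif4b, which encodes the RNA-binding partner that stimulates the helicase, measured 9.83 and 9.50 in the TCDD arrays against 10.03 and 10.13 in the DMSO arrays. Both TCDD arrays were lower, with a difference of −0.415, but the other 2 probe sets of Eif4b differed by 0.005 and 0.155 and had overlapping groups. Eif4e, which encodes the cap-binding protein itself, measured 7.31 and 7.18 against 7.42 and 7.33. These groups were separate by 0.02 only, and the difference was −0.13. Another probe set of Eif4e, below the median level, was separate and higher at 0.17, and a further one overlapped at −0.15.

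The other cap-binding genes lay higher. Eif4e3 measured 7.84 and 7.91 in the TCDD arrays against 7.46 and 7.62 in the DMSO arrays, a difference of 0.335 (limits 0.04 and 0.63). Eif4e2, whose protein binds the cap in repressed mRNAs, measured 8.95 and 8.90 against 8.66 and 8.64. Both were separate within each number and by similar amounts, 0.38 and 0.29 for Eif4e3 and 0.29 and 0.26 for Eif4e2 within numbers 1 and 2. For both genes another probe set went the other way, by −0.005 for Eif4e3 and by −0.24 for Eif4e2, the second with separate groups. The scaffold gene Eif4g2 measured 11.90 and 11.27 against 11.57 and 11.88, with overlapping groups. Eif4g3, another scaffold gene, measured 8.83 and 8.18 against 8.84 and 7.91, so the arrays numbered 1 were the high ones in both treatments.

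The regulators that bind eIF4E gave no shared direction. Eif4enif1, which encodes a transporter that carries eIF4E to the nucleus, measured 7.68 and 7.61 in the TCDD arrays against 7.84 and 8.14 in the DMSO arrays, a difference of −0.345 (limits −0.71 and 0.02) with separate groups. The repressor gene Eif4ebp2 measured 7.12 and 7.53 against 7.11 and 8.50. Its difference of −0.48 came from DMSO replicate 2, the array with the high S100a8 signal, and was 0.215 without that array. Another probe set of Eif4ebp2 at nearly the same level measured 7.30 and 7.16 against 7.59 and 8.17, with separate groups and a difference of −0.65 that was −0.29 within number 1. Of the further ones above the median level, one was separate and lower at −0.125 and one overlapped at 0.105. Eif4ebp1, a repressor that mTOR inactivates, measured 7.23 and 7.07 against 7.18 and 6.95, with a difference of 0.085.

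**Figure D2:**
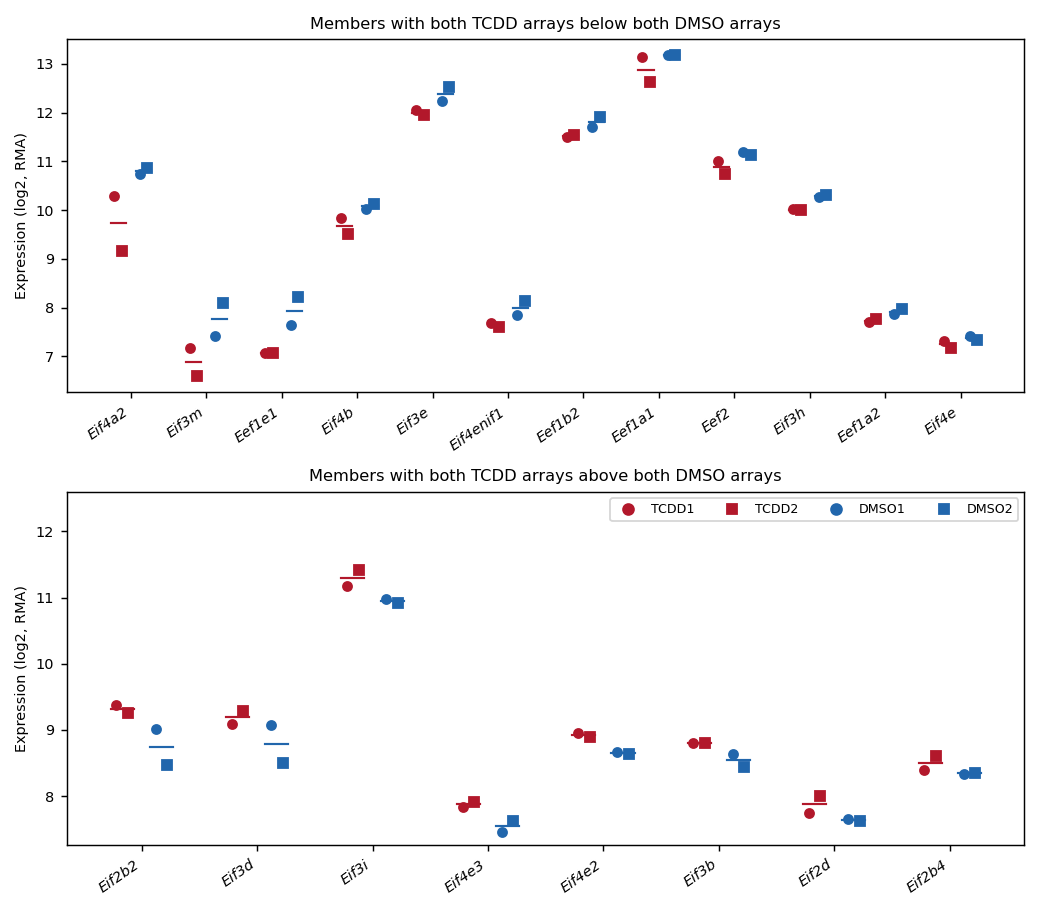
Expression (log2, RMA) on each array of the 12 separate and lower members (upper panel) and the 8 separate and higher ones (lower panel), TCDD in red on the left and DMSO in blue on the right, circles for replicate 1, squares for replicate 2 and lines for means. For Eif4a2 and Eif3m the distance lies mainly between the squares, while for Eif3h, Eif4e2 and Eif4e3 the 2 arrays of a group lie close together.

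The eIF3 subunits were split, with 3 of 11 separate and lower, 3 separate and higher (27.3% each, beside 12% and 12.9% of all genes) and 5 overlapping, and their median difference was 0.075. The lower ones were Eif3m (above), Eif3e and Eif3h. Eif3e measured 12.05 and 11.94 in the TCDD arrays against 12.24 and 12.53 in the DMSO arrays, a difference of −0.39 (limits −0.76 and −0.02). Both TCDD arrays were lower there and in a second probe set of the gene, which measured 10.70 and 10.12 against 11.17 and 11.88 and differed by −1.115, while another overlapped at −0.045. Eif3h measured 10.02 and 10.00 against 10.26 and 10.31. This was the most even of the eIF3 differences, with −0.24 and −0.31 within numbers 1 and 2.

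The higher ones were Eif3d, Eif3i and Eif3b. Eif3d, whose protein can itself bind caps, measured 9.09 and 9.29 in the TCDD arrays against 9.08 and 8.50 in the DMSO arrays. The groups were separate by 0.01 only, and the difference of 0.40 lay between the arrays numbered 2. Eif3i measured 11.17 and 11.42 against 10.98 and 10.92, a difference of 0.345 (limits 0.01 and 0.68), and its other probe set differed by 0.37, also with both TCDD arrays higher. Eif3b, the partner of Eif3i in a module of the complex, measured 8.80 and 8.80 against 8.64 and 8.44.

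By the architecture of the complex, in a grouping made after the values were seen, 8 measured subunits belong to the octamer that forms the body of eIF3. Of these 8, 3 (Eif3e, Eif3h, Eif3m) were separate and lower (37.5%, beside 12% of all genes). None was separate and higher, where 12.9% of all genes were. The other 5 (Eif3a, Eif3c, Eif3f, Eif3k, Eif3l) overlapped, with differences between −0.12 and 0.24. The median over the 8 was −0.045, with 4 below 0 and 4 above. The 3 separate and higher genes, Eif3b, Eif3d and Eif3i, encode subunits outside it. For all 11 eIF3 genes the difference was larger in size within number 2 than within number 1, where 60.6% of all genes and 75.5% of the members had this.

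The eIF2B genes were the group with the highest median among those of more than 1 gene, 0.1575. Of 4 listed eIF2 genes 3 were measured, Eif2s2, Eif2s3x and Eif2s3y. All 3 overlapped in the probe set used, where 9307 of all 12393 genes overlapped. Within eIF2B, Eif2b4 measured 8.39 and 8.61 in the TCDD arrays against 8.34 and 8.35 in the DMSO arrays, with both TCDD arrays higher, as for Eif2b2. Eif2b5, which encodes the catalytic subunit, measured 6.61 and 6.37 against 6.38 and 6.28 and overlapped, and Eif2b1 differed by −0.01. The positive direction within both numbers held for 3 of the 4 genes, where 22.6% of all genes had it.

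For eIF2 itself, Eif2s2, the beta subunit gene, measured 9.87 and 9.15 in the TCDD arrays against 9.46 and 9.55 in the DMSO arrays. TCDD replicate 1 was the highest array and TCDD replicate 2 the lowest, and the difference was 0.005. The X-linked gamma subunit gene Eif2s3x measured 9.48 and 9.04 against 9.43 and 9.43, a difference of −0.17 set by TCDD replicate 2 and 0.05 without it. Another probe set of Eif2s3x measured 8.61 and 8.13 against 8.73 and 8.76, with both TCDD arrays lower and a difference of −0.375, and one more overlapped at 0.045. Eif2s3y, its copy on the Y chromosome, measured 3.21 and 3.54 against 3.35 and 3.29. The female mice do not carry that gene, so these values are the signal that its probe set gives without a transcript.

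The kinases that phosphorylate eIF2 had overlapping groups in 4 of 4 cases, where 9307 of all 12393 genes overlapped. Eif2ak3, the sensor of endoplasmic reticulum stress known as PERK, measured 8.17 and 7.01 in the TCDD arrays against 7.57 and 7.61 in the DMSO arrays. The TCDD arrays lay on opposite sides of the DMSO arrays, at 0.60 within number 1 and −0.60 within number 2, and the means were equal. Eif2ak1, the kinase regulated by haem, measured 6.53 and 6.72 against 6.76 and 6.56, and its 95% limits were −0.38 and 0.31. Eif2ak2, the kinase activated by double-stranded RNA, and Eif2ak4, the amino acid sensor GCN2, had means below the median level, where RMA values compress differences, and differed by 0.11 and 0.285.

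The genes for scanning and subunit joining overlapped in 5 of 5 cases, again beside 9307 of all 12393 genes. Eif1b measured 6.54 and 7.02 in the TCDD arrays against 6.68 and 8.14 in the DMSO arrays. Its difference of −0.63 came from DMSO replicate 2, as for Eif4ebp2, and was 0.10 without that array. Eif5, which encodes the GTPase-activating partner of eIF2, measured 11.74 and 10.57 against 11.38 and 10.86. The arrays numbered 2 minus those numbered 1 gave −1.17 for TCDD and −0.52 for DMSO, and the difference between treatments was 0.035. Eif1ax and Eif5b differed by −0.235 and −0.095.

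Eif5a, which helps ribosomes past stalling sequences, measured 11.94 and 12.01 in the TCDD arrays against 11.99 and 11.88 in the DMSO arrays, a difference of 0.04 (limits −0.24 and 0.32). Its other probe set measured 8.20 and 8.32 against 8.46 and 8.53, with both TCDD arrays lower. Eif6, which keeps the ribosomal subunits apart, measured 9.36 and 9.91 against 9.58 and 9.44 and overlapped. Eif2d, an alternative factor for tRNA delivery and recycling, measured 7.75 and 8.00 against 7.65 and 7.62. Both TCDD arrays of Eif2d were higher, with a difference of 0.24, while of the further probe sets one differed by 0.13 and one by −0.015.

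The eEF1 genes lay on 1 side in the probe sets used. All 5 had a difference below 0, from −0.865 to −0.18 with a median of −0.295, where 5651 of all 12393 genes had a difference below 0. Of the 5, 4 were separate and lower, where 12% of all genes were. The lowest was Eef1e1, which is counted here by its symbol although its protein sits in the synthetase complex. Eef1a1, which encodes the factor that carries aminoacyl-tRNA, measured 13.13 and 12.62 in the TCDD arrays against 13.17 and 13.17 in the DMSO arrays. The value within number 1 was −0.04, so the difference of −0.295 (limits −0.80 and 0.21) was that of TCDD replicate 2. Eef1a2, the paralogue of muscle and nerve, measured 7.70 and 7.77 against 7.86 and 7.97.

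The exchange factor genes of eEF1 were close in size to these. Eef1b2 measured 11.49 and 11.53 in the TCDD arrays against 11.71 and 11.90 in the DMSO arrays, with −0.22 and −0.37 within numbers 1 and 2. Its difference of −0.295 had limits of −0.60 and 0.01. Eef1d measured 9.78 and 9.79 against 9.71 and 10.42, which overlap, and only DMSO replicate 2 stood out. Within number 1 Eef1d differed by 0.07, and its other probe sets overlapped at −0.195 and 0.045.

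Eef2, the translocase gene, measured 11.01 and 10.75 in the TCDD arrays against 11.19 and 11.12 in the DMSO arrays, and both TCDD arrays were lower, with a difference of −0.275 (limits −0.62 and 0.07). Eef2k, whose kinase inactivates eEF2, had a mean below the median level and differed by 0.03. Of the remaining elongation genes Eef1akmt1, which encodes a lysine methyltransferase of eEF1A, measured 7.03 and 7.82 against 7.10 and 6.90. The value of 7.82 in TCDD replicate 2 made the difference of 0.425, and further probe sets differed by −0.01 and 0.14. Eefsec, the factor for selenocysteine, and Eef2kmt overlapped, with differences of −0.13 and 0.135.

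Several of the lower members are known as TOP mRNAs, transcripts whose pyrimidine-rich start puts their translation under mTOR control. The arrays measure transcript levels, and translation was not measured. A list of 9 such members was made with earlier results of these data known. Of these 9 genes 8 were measured, all of them already counted in the groups above. Among them 6 were separate and lower (Eef1a1, Eef1b2, Eef2, Eif3e, Eif3h, Eif4b), 0 were separate and higher, and Eef1d and Eif3f overlapped at −0.28 and 0.075. The lower ones were 75% of the 8, beside 12% of all genes, and 12.9% of all genes were separate and higher. Their median difference was −0.2875, with −0.185 within number 1 and −0.46 within number 2, beside −0.03 and 0.05 over all genes. The cytosolic ribosomal protein genes, the main class of TOP mRNAs, were added after the values were seen. Their median difference was 0 over 41 genes, with 11 separate and lower (26.8%, beside 12% of all genes) and 4 separate and higher (9.76%, beside 12.9%).

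Other genes of translation control were read from a list of 37, of which 30 were measured. Their median difference was −0.03, 7 of 30 were separate and lower (23.3%, beside 12% of all genes), 2 were separate and higher (6.67%, beside 12.9%) and 21 overlapped, and 0 passed limma. The lowest was Abce1, whose protein recycles ribosomes, at 6.98 and 6.37 in the TCDD arrays against 7.13 and 7.55 in the DMSO arrays (difference −0.665, limits −1.35 and 0.02). Mtif2, the initiation factor of mitochondria, differed by −0.565, and Mcts1, which acts in recycling and reinitiation, by −0.45, both with separate groups. Ddx3x, which encodes an RNA helicase, measured 11.08 and 9.37 against 10.71 and 10.62, and its difference of −0.44 lay in number 2 (−1.25, against 0.37 in number 1). Mtor itself measured 8.19 and 7.89 against 7.90 and 7.54 and overlapped.

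The differences were larger between the arrays numbered 2. Within number 1 the median size of a member's difference was 0.18, beside 0.11 over all genes, and within number 2 it was 0.37, beside 0.16. These sizes were not matched for level. For 40 of 53 members (75.5%) the difference was larger in size within number 2, where 60.6% of all genes had this. TCDD replicate 2 was the lowest of the 4 arrays for 17 of 53 members (32.1%), where 19.1% of all genes had it lowest, and DMSO replicate 2 was the lowest for 18 (34%), where 28% of all genes had it lowest. The sign was negative within both numbers for 14 members (26.4%), beside 20.2% of all genes, and positive within both for 13 (24.5%), beside 22.6%. Over the 53 members, which share the same 4 arrays, the Pearson correlation of the 2 within-number differences was 0.227, and over all genes it was −0.0757.

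**Figure D3:**
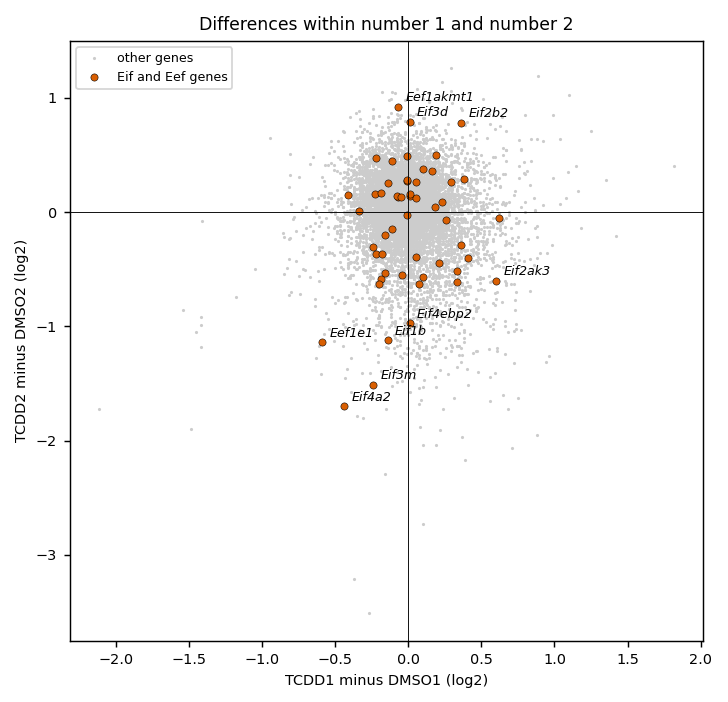
TCDD minus DMSO (log2) within number 1 (horizontal axis) and within number 2 (vertical axis), for the 53 Eif and Eef genes in orange over the other genes in grey. The members reach from −1.70 to 0.92 on the vertical axis and from −0.59 to 0.62 on the horizontal axis, and Eif4a2, Eif3m and Eef1e1 lie low on both.

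Probe sets of one gene did not always lie on the same side. For 22 members there were other probe sets above the median level, 42 in all, and for 15 of the 22 at least 1 of these had the opposite sign. Among the 12 separate and lower members 3 had such probe sets, and at that level an opposite one was found for Eif4b and for neither Eif3e nor Eif4e. Among the 8 separate and higher members 5 had them, with an opposite one for Eif4e2, Eif4e3 and Eif2d and for neither Eif2b2 nor Eif3i. Eif4a2, Eef1e1, Eef1a1, Eef1b2 and Eef2 had 1 probe set each, so no second reading was at hand for them. Of the 33 members with overlapping groups 14 had other probe sets above the median level. For 5 of these 14 (Eif2s2, Eif2s3x, Eif4ebp2, Eif4h and Eif5a) another one was separate and lower, and for 0 another one was separate and higher. With 1 probe set per gene, 12% of all genes were separate and lower and 12.9% separate and higher. Below the median level both directions occurred, for example higher for Eif3l and Eif4g2 and lower for Eif1ax and Eif2ak2. With the mean over all probe sets of a gene, 15 of the 27 named members kept their sign within 1.5 times, 7 kept it at a smaller size, and 4 turned sign (Eif2ak1, Eif2s2, Eif5 and Eif5a). The other of the 27 had a difference of 0. Among the 15 are Eef1a1, Eef1a2, Eef1e1, Eef2, Eif1b, Eif2s3y, Eif3d, Eif4a2, Eif4enif1 and Eif6. These have 1 probe set each, so the mean over probe sets could not change their values. The 7 were Eif3m at −0.36, Eif4b at −0.085, Eif2b2 at 0.287, Eif4e3 at 0.165, Eif2d at 0.075, Eef1akmt1 at 0.085 and Eif4ebp2 at −0.274.

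**Figure D4:**
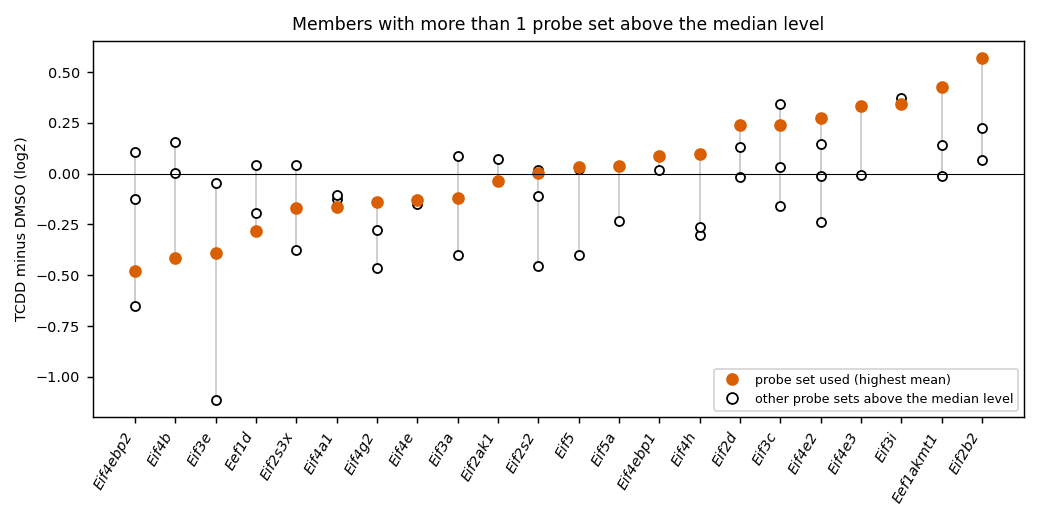
TCDD minus DMSO (log2, vertical axis) of the 22 members with more than 1 probe set above the median level, the one used in orange and the others as open circles. The probe sets of Eif3i, Eif4a1 and Eif4e lie close together, while those of Eif3e span from −1.115 to −0.045 and those of Eif4e2 from −0.24 to 0.275.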

How the data were processed

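RNA of sorted splenic CD8 T cells was amplified and hybridised to 4 Affymetrix arrays, 2 per group. The deposited table gives log2 expression values that the authors made with RMA, per the submitters' processing notes. These notes name no version. Values of 3.09 to 14.62 fit a log2 scale. After 64 controls were left out, 22626 probe sets were fitted in R 4.3.3 with limma 3.58.1 (lmFit, then eBayes, group as the sole term), with Benjamini-Hochberg adjustment and a threshold of 0.05; limits are 95% moderated limits. With 2 arrays a group, the smallest two-sided permutation p is 0.3333, so none was run. Gene symbols came from the platform annotation, and symbols of members matched RefSeq (GRCm38.p6). In all, 6 probe sets that list an Eif or Eef gene beside another gene were left out.

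Members with values on every array are those with separate groups, a mean difference of 0.3 or more in size and a level above the median, the member with the largest difference and with the highest mean in each factor group, Eif2s3x, Eif2s3y and paralogues, in all 27 genes; others were described after their values were seen. Members and lists were chosen with earlier results of these data known. The fit was tested on simulated data. Alternatives were array centring, quantile normalisation, filters on low values, a variance trend with robust fitting, removal of _x_at and _s_at probe sets, gene means, a replicate block and each array left out. The number of arrays limits the precision.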

Additional observations from a re-analysis of the deposited data

How the results depend on the processing

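The count of members past limma stayed at 0 under every alternative run, as did the count of all probe sets, and the lowest adjusted p of a member ran from 0.795 to 1. The number in the titles is not stated to mark a batch or animals, and the deviations of same-numbered arrays from their group means correlated at 0.234 over all probe sets. With the number as a replicate block the counts past limma stayed at 0, and 3 members (Eef1e1, Eif2b2, Eif4e3) had an unadjusted p under 0.05 (5.66%, beside 2.79% of all genes), in place of 10 (18.9%, beside 2.11%).

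All 3 were among the 10. The count was 5 (10%, beside 1.8% of all genes) and 4 (8.51%, beside 1.62%) when probe sets in the lowest 25% of level, and below the median level, were left out. As arrays were left out, separate and lower members numbered 17 to 20 and separate and higher ones 13 to 21, since fewer arrays overlap less. Over all genes the shares then ran from 23.8% to 38.2% lower and from 25.3% to 43% higher. The median over members ran from −0.03 to 0.065.

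Group medians with an array left out ran from −0.39 to −0.20 for eEF1, −0.03 to 0.20 for eIF3, −0.195 to 0.155 for eIF4, 0.135 to 0.18 for eIF2B, −0.355 to 0.05 for eIF2, 0.0225 to 0.275 for the eIF2 kinases, −0.495 to −0.03 for the eIF4E-binding proteins, and −0.505 to 0.20 for scanning and joining. The median of Eef2 and its kinase gene was −0.275 without probe sets below the median level, since only Eef2 was left, and Eif2d was at 0.075 for gene means.

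Of 27 named members, 11 turned sign under some alternative and 16 under none. The 16 include Eif2ak3, whose difference of 0 had no sign to turn. With an array left out Eif2ak3 ran from −0.58 to 0.58. For gene means Eif2ak1 turned to 0.0067, Eif2s2 to −0.125, Eif5 to −0.28 and Eif5a to −0.0975, since other probe sets enter. Without _x_at and _s_at probe sets no value was left for Eif3m and Eif5a, and Eif4g2 was at −0.275. With an array left out the ranges were −1.36 to 0.10 for Eif1b, −0.135 to 0.065 for Eif2ak1, −0.355 to 0.365 for Eif2s2, −0.39 to 0.05 for Eif2s3x, −0.11 to 0.22 for Eif2s3y, −0.44 to 0.11 for Eif4a1, −1.175 to 0.215 for Eif4ebp2, −0.455 to 0.175 for Eif4g2, −0.55 to 0.62 for Eif5, −0.015 to 0.095 for Eif5a and −0.15 to 0.40 for Eif6. For separate members the sign cannot turn there.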
